A study of Mus musculus with 4 samples.

Results

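The proteasome genes of subcutaneous white fat of the mouse were followed across 4 RNA sequencing libraries. Members were all genes of the deposited table whose symbol began with Psma, Psmb, Psmc, Psmd, Psme, Psmf or Psmg followed by a digit, and this gave 50 of 51912 genes. All 50 are annotated as protein coding. Names marked as pseudogenes (-ps) were left out. There were 4 of these, and 3 had no count in any library. Psmb7-ps2 had 5.22 estimated counts in vehicle A and 5.32 in BML-260 B. One match, Psmc3ip, is a meiotic recombination cofactor named for its interaction with a proteasome ATPase, and it is not a subunit.

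The tissue came from C57BL/6 mice of 8 weeks that had received either BML-260, which inhibits the phosphatase DUSP22, or the solvent DMSO as vehicle. Each treatment had 2 libraries, A and B. The series' design names 8 mice, 4 per treatment. The labels do not say which mice entered which library, so each p-value reflects the spread between these libraries alone, which may be technical. The sources used here give no dose, route or duration of treatment.

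Library totals lay between 19999836 and 23726781 estimated counts. All 10 markers of adipocytes, such as Adipoq and Plin1, were detected in every library, with summed levels of 42300 and 42900 CPM (counts scaled to a common library size with TMM factors) in the vehicle libraries and 25000 and 36700 CPM in BML-260 A and B. The 16 skeletal muscle markers, all detected in every library, summed to 435 (vehicle A), 11800 (vehicle B), 33200 (BML-260 A) and 51100 CPM (BML-260 B). B cell markers were at 262 CPM in BML-260 A against 21.4 to 31.3 CPM in the other libraries. In whole tissue, fewer cells of a type and less RNA per cell cannot be told apart.

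The proteasome is the cell's main machine for degrading proteins tagged with ubiquitin. Its barrel, the 20S core, is built of rings of alpha subunits (Psma genes), which gate the entrance, and rings of beta subunits (Psmb genes), some of which carry the cutting sites. The 19S regulatory particle caps the barrel: its ATPases (Psmc genes) unfold substrates, and its other subunits (Psmd genes) bind ubiquitin and remove it. In immune cells and under interferon gamma, the catalytic subunits encoded by Psmb5, Psmb6 and Psmb7 are replaced by those of Psmb8, Psmb9 and Psmb10, which gives the immunoproteasome. In brown fat, proteasome genes are known to be controlled by the transcription factor NFE2L1 during cold exposure.

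With BML-260, most proteasome genes lay close to their vehicle level. Psme4, which encodes the activator PA200, was the member with the largest fold, 1.62-fold higher (95% confidence interval 1.21 to 2.19). The 3 immunoproteasome genes were lower in both BML-260 libraries than in both vehicle libraries, as were 21.5% of all tested genes. Each differed by less than 1.5-fold. Of the 17 genes of the 19S particle, 12 had a positive log2 fold change, against 3 of the 14 genes of the standard 20S core and 52.5% of all tested genes. Both counts rested on single libraries, with 9 of 14 core genes above zero without BML-260 A and 8 of 17 19S genes without BML-260 B. None of these members passed the main test.

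In edgeR's quasi-likelihood test over all 15643 tested genes, 0 of the 48 tested members had an adjusted p under 0.05, and the lowest was 0.329. Over all genes that test called 0.00639% higher and 0% lower. Without adjustment, 1 member had p under 0.05 in the higher and 0 in the lower direction, against 7.45% and 3.61% of all genes. With DESeq2, 1 member was called higher and 0 lower (2.09% and 0.499% of all genes), while limma-voom called 0. At an unadjusted p under 0.05 DESeq2 had 2 members, Psme4 and Psmb8. The authors' deposited table has 1 member with an adjusted p under 0.05, against a background of 1.8% higher and 0.431% lower. Psme4 was the member called by DESeq2 and in the authors' deposited table. The median log2 fold change was -0.02 over the 48 members and 0.02 over all tested genes.

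The median absolute log2 fold change of the members was 0.11, against 0.20 over all tested genes, which include many with low counts. For 41 of the 48 members (85.4%) the change was within 0.25 on the log2 scale, which held for 57.9% of all genes. Both BML-260 libraries lay above both vehicle libraries for 10 members (20.8%, against 22.9% of all tested genes). Both lay below for 14 members (29.2%, against 21.5%).

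**Figure D1:**
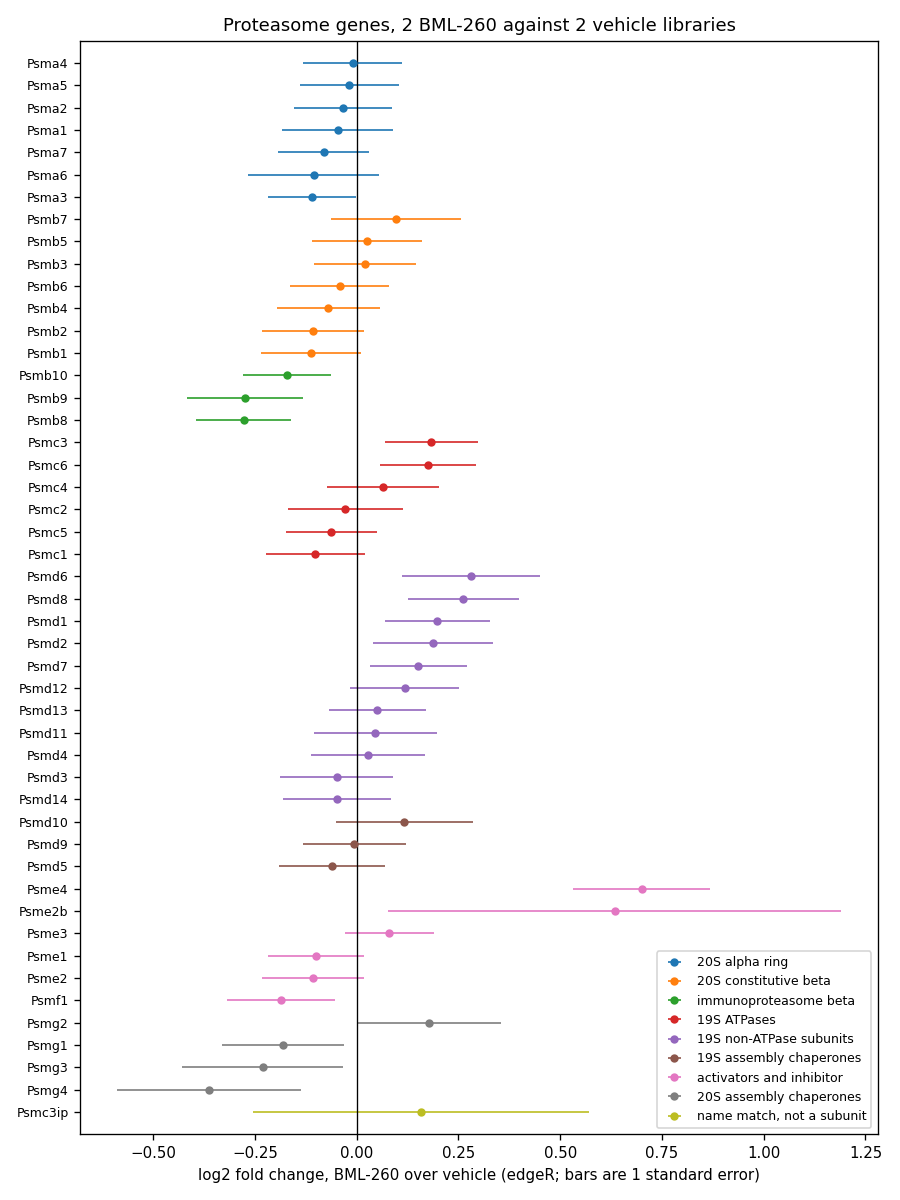
Log2 fold change of BML-260 over vehicle for the 48 tested members, 1 row per gene, coloured by class; points are edgeR estimates and bars 1 standard error (2 libraries per group). Psme4 stands at 0.70, the 3 immunoproteasome genes lie between -0.28 and -0.17, and the bars of 30 genes reach zero.

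Levels between genes were compared as FPKM, which is corrected for gene length. The 7 constitutive beta genes were the most even class, from 129 ± 3.22 FPKM for Psmb7 to 194 ± 12.2 for Psmb6 in vehicle (SD, n = 2), a ratio of 1.5. The 7 alpha ring genes spanned a ratio of 4.34, from 36.9 FPKM for Psma2 to 160 for Psma7. Of the immunoproteasome genes, Psmb8 was highest at 167 FPKM and Psmb9 lowest at 60.1. The 17 genes of the 19S particle had a median of 59.7 FPKM in vehicle against 136 for the 14 standard core genes. Psmd11, a lid subunit, was the lowest 19S gene at 32.2 FPKM, and Psmd4, a ubiquitin receptor, the highest at 126. Assembly chaperones were lower still, with medians of 11 FPKM for those of the 19S base (Psmd5, Psmd9, Psmd10) and 17.8 for those of the core (Psmg1 to Psmg4).

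The 2 core genes known from single tissues were almost silent. Psma8, the testis form of an alpha subunit, had 1, 2, 3 and 4 counts in vehicle A, vehicle B, BML-260 A and BML-260 B. Psmb11, the beta subunit of thymic epithelium, had 1 count in vehicle A and 0 in the other 3 libraries. Neither had enough counts to be tested.

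**Figure D2:**
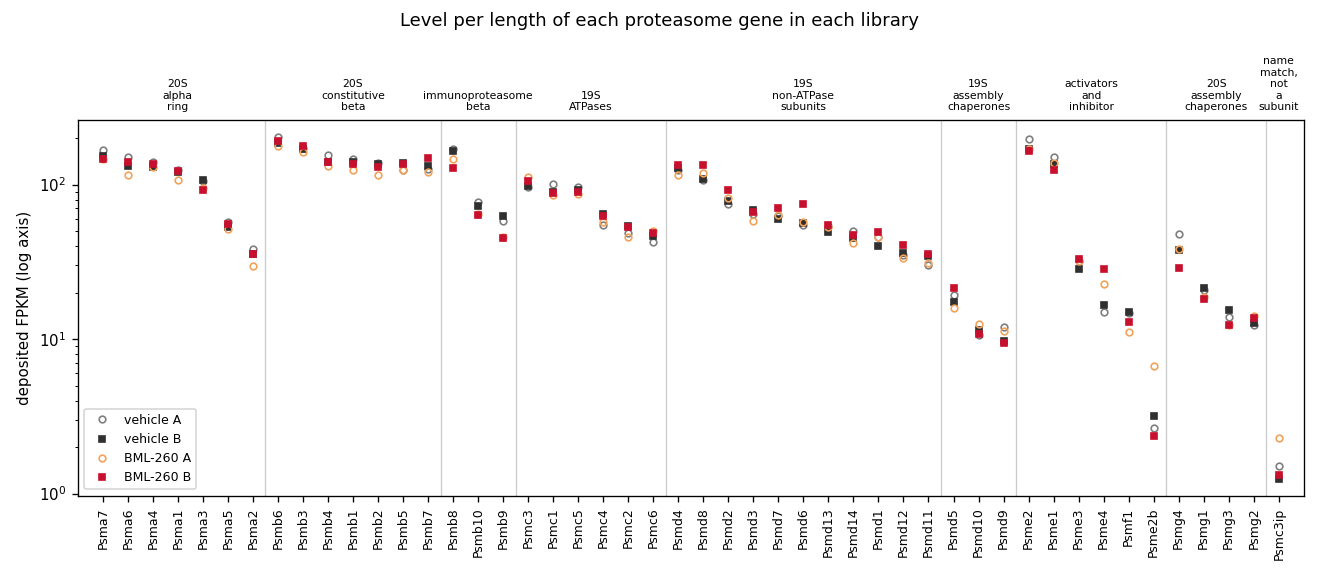
Deposited FPKM (log axis) of 48 members (without Psma8 and Psmb11) in each of the 4 libraries, grouped by class and ordered by vehicle level; open circles are libraries A and filled squares libraries B. The constitutive beta genes lie within a ratio of 1.5 in vehicle, and the assembly chaperones lie below almost all subunits.

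Promoter sequence was looked at because NFE2L1 acts through the antioxidant response core TGACNNNGC. RefSeq windows (GRCm38.p6) of 250 bases before to 50 after a start were found for 42 of the 50 members. The core, on either strand, was in the windows of 6 members (14.3%), namely Psmb5, Psmb6, Psmc6, Psmd9, Psmd12 and Psme4, against 14% of 27025 genes. The interferon regulatory factor pair, GAAA repeated after a gap of any 2 bases, on either strand, was in 5 members (11.9%), namely Psmb3, Psmd4, Psmd9, Psme1 and Psmg4, against 3.99% of genes. The windows of Psmb8, Psmb9 and Psmb10 held none. Those of Psmb8 and Psmb9 lay inside the annotated genes, so the sequence upstream of their annotated ends was not searched. The CCAAT box was in 15 members (35.7%) against 41.1% of genes. The cyclic AMP response core TGACGTCA was in 0 of 42 members and 2.03% of genes. These are matches of letters in short windows, and binding was not measured.

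The start regions of the gene with the largest difference, Psme4, and of pairs of constitutive and immunoproteasome genes are shown from 100 bases before to 10 after the RefSeq start, on the gene's strand, with the antioxidant response core in capitals. They are Psme4 at chr11:30771675-30771784 (plus), Psmb5 at chr14:54617986-54618095 (minus), Psmb6 at chr11:70525257-70525366 (plus), Psmb8 at chr17:34198095-34198204 (plus) and Psmb9 at chr17:34187321-34187430 (minus).
Psme4: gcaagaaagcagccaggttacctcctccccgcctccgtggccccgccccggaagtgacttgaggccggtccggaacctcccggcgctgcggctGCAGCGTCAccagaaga
Psmb5: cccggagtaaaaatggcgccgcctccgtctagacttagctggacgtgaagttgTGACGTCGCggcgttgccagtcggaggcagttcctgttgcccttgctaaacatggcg
Psmb6: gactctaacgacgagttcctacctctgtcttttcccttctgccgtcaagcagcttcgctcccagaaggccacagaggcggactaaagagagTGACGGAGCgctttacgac
Psmb8: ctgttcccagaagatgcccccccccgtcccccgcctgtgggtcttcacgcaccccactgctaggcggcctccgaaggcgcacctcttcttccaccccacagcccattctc
Psmb9: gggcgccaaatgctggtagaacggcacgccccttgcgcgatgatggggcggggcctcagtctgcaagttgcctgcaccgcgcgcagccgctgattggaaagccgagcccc
In Psme4 the core reads on the opposite strand and spans the start site. In Psmb5 and Psmb6 it reads on the gene's strand.

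All 7 alpha ring genes had log2 fold changes below zero, and all were small, from -0.11 for Psma3 to -0.01 for Psma4. Psma3 was at 90.7 and 91.8 CPM in vehicle A and B and at 84.9 and 84.2 in BML-260 A and B, so the groups did not overlap (edgeR adjusted p = 0.737). Psma4 was at 117 and 111 CPM in vehicle against 109 and 117 with BML-260, with full overlap. Of the class, Psma3 and Psma7 alone had no overlap between the groups, both lower with BML-260 (28.6%, against 21.5% of all tested genes).

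The constitutive beta genes were split, with 3 log2 fold changes above zero and 4 below. Psmb1, a structural beta subunit, was at 104 and 103 CPM against 89.9 and 101 with BML-260, without overlap, the lowest log2 fold change of the class at -0.11 (SE 0.12). Among the catalytic genes, Psmb5, whose product cuts after hydrophobic residues, was at 68.2 and 78.1 CPM in vehicle against 69.4 and 79.4 with BML-260. Psmb6, which encodes the caspase-like subunit, was at 96.1 and 91.9 CPM against 86.2 and 96.4. Psmb7, which encodes the trypsin-like subunit, was at 106 and 113 CPM against 103 and 131. For these 3 genes the groups overlapped, and log2 fold changes were 0.02, -0.04 and 0.10 with edgeR adjusted p of 0.961, 0.918 and 0.856.

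The BML-260 libraries differed from each other in the standard core. For 13 of the 14 genes the level was lower in BML-260 A than in BML-260 B. Relative to the vehicle mean, the median log2 level of the class was -0.11 in A and 0.04 in B of BML-260, and 0.02 and -0.02 in vehicle A and B. The median log2 fold change of the 14 genes was -0.04. Leaving out BML-260 A gave 0.03, and leaving out BML-260 B gave -0.11 with 14 of 14 below zero, so the direction rested on 1 library. Adipocyte marker sums were lowest and B cell sums highest in BML-260 A, and their part in the difference was not tested.

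The immunoproteasome genes were the class with the lowest median, -0.28 over 3 genes. Psmb8 (chr17:34197721-34201454, plus strand, GRCm38) was at 126 and 123 CPM in vehicle against 105 and 101 with BML-260. This is 0.82-fold (95% confidence interval 0.67 to 1.01), a log2 fold change of -0.28 with SE 0.12 (edgeR adjusted p = 0.465; DESeq2 unadjusted p = 0.0394, adjusted 0.408). Psmb9 (chr17:34181987-34187764, minus strand) was at 52.6 and 64.7 CPM in vehicle against 47.7 and 49.2 with BML-260. Its log2 fold change was -0.28 with SE 0.14 (edgeR adjusted p = 0.534). Psmb10 (chr8:105935735-105938444, minus strand) was at 59.3 and 58.3 CPM in vehicle against 52.9 and 51.5 with BML-260. Its log2 fold change was -0.17 with SE 0.11 (edgeR adjusted p = 0.598).

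For each of these 3 genes both BML-260 values lay below both vehicle values, which held for 21.5% of all tested genes. Their log2 fold changes stayed below zero with each library left out in turn, between -0.32 and -0.25 for Psmb8 and between -0.20 and -0.16 for Psmb10. Psmb9 depended more on the vehicle libraries, with -0.44 without vehicle A and -0.12 without vehicle B. With library totals as the scaling the class median was -0.33, while the median of all genes moved from 0.02 to -0.04.

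The ratio of each immunoproteasome gene to the constitutive gene it replaces was taken within each library from FPKM, so that library scaling does not enter. The Psmb8 to Psmb5 ratio was 1.37 and 1.2 in vehicle A and B and 1.19 and 0.941 in BML-260 A and B. The Psmb9 to Psmb6 ratio was 0.286 and 0.335 in vehicle against 0.259 and 0.235 with BML-260. The Psmb10 to Psmb7 ratio was 0.608 and 0.548 in vehicle against 0.531 and 0.423 with BML-260. In all 3 pairs both BML-260 ratios of FPKM lay below both vehicle ratios, by a mean log2 difference of -0.28, -0.33 and -0.29. With CPM in place of FPKM the differences were -0.30, -0.22 and -0.26. The Psmb9 to Psmb6 groups then overlapped, with vehicle A slightly below BML-260 A, so the separation of this pair depended on the measure.

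An exact two-sided permutation test of 2 against 2 libraries cannot give a p below 0.333, and each of the 3 pairs gave 0.333 (0.333 after Benjamini-Hochberg adjustment over the 3). For Psmb8 to Psmb5 the gap between vehicle B and BML-260 A was small, 1.2 against 1.19. Without BML-260 B the log2 differences were -0.11, -0.26 and -0.12. In vehicle, Psmb8 thus had a higher level per length than Psmb5, while Psmb9 and Psmb10 were below their counterparts.

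**Figure D3:**
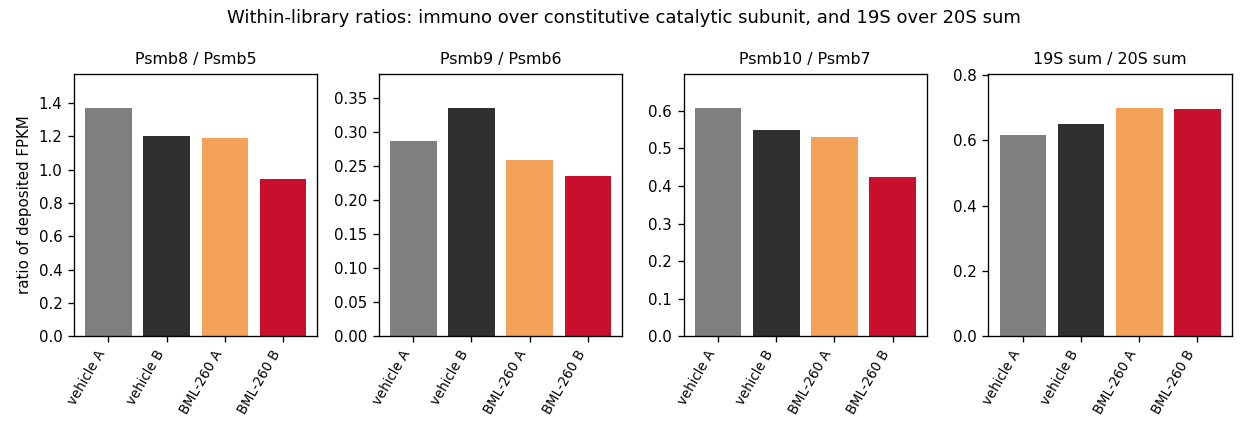
Ratios of deposited FPKM within each library (bars start at 0): the 3 immunoproteasome genes over their constitutive counterparts, and the summed 19S genes over the summed standard 20S genes. The 3 catalytic ratios are lowest in BML-260 B, and the 19S to 20S ratio is 0.617 and 0.649 in vehicle against 0.699 and 0.696 with BML-260.

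Marker lists of immune and other cells are given for the same libraries, in the order vehicle A, vehicle B, BML-260 A and BML-260 B. B cell markers summed to 21.4, 31.3, 262 and 25.6 CPM, with Fcer2a and Blk at 0 in vehicle A and Cr2 at 0 in vehicle B. T and NK cell markers summed to 13.4, 33.6, 160 and 20.8 CPM, and dendritic cell markers to 46.1, 48.2, 55.3 and 37.3, with none at 0. These 3 sums were highest in BML-260 A, and the dendritic sum was lowest in BML-260 B. Of the 7 dendritic markers, 2 were lower in both BML-260 libraries than in both vehicle libraries, against 21.5% of all tested genes.

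The 12 macrophage markers summed to 1990, 2300, 2850 and 1510 CPM, none at 0. Of these, 7 had a log2 fold change above zero and 5 below, with a median of 0.05. Itgam (1.05, SE 0.50) and Cd68 (0.73, SE 0.39) were highest, with overlap between the groups. Both BML-260 libraries were below both vehicle libraries for 2 of the 12, against 21.5% of all tested genes, and above for 0. The 2 were Cd163, a scavenger receptor, and Mertk, a receptor for dying cells. Cd163 was at 120 and 142 CPM in vehicle against 99.5 and 76.1 with BML-260 (log2 fold change -0.58, SE 0.18, edgeR unadjusted p = 0.0218, adjusted 0.388). The 22 interferon-stimulated genes summed to 1600, 1520, 1530 and 1370 CPM, and 15 of them were below zero. The other 7 were above zero, and the median of the 22 was -0.09. Both BML-260 libraries lay below both vehicle libraries for 5 of the 22 and above for 0. Over all tested genes these shares were 21.5% and 22.9%. Among the 5 was Cxcl9, a chemokine induced by interferon gamma, at 49.7 and 69.8 CPM against 32.8 and 45.1 (-0.62, SE 0.23, edgeR unadjusted p = 0.0433, adjusted 0.44). It was the only 1 of the 22 with an edgeR unadjusted p under 0.05, against 3.61% of all tested genes in the lower direction.

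Adipocyte and endothelial marker sums were lower in both BML-260 libraries. The 6 endothelial markers summed to 666, 582, 417 and 525 CPM, and all 6 were below zero. For 5 of them both BML-260 libraries lay below both vehicle libraries, against 21.5% of all tested genes. EdgeR called 0 of them, with 2 lower at an unadjusted p under 0.05, against 3.61% of all tested genes. DESeq2 called Cldn5, a tight junction gene, lower (adjusted p = 0.0283), against 0.499% of all tested genes. The part of any of these cell types in the lower immunoproteasome level was not tested.

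Genes that work with the immunoproteasome in antigen presentation were taken from a list of 15. Of these, 4 had a log2 fold change above zero and 11 below, with a median of -0.07. EdgeR called 0 of them. Its p without adjustment was under 0.05 for 1 higher and 1 lower gene, against 7.45% and 3.61% of all tested genes. Both were called by DESeq2, which called 2.09% of all tested genes higher and 0.499% lower. Ifngr1, the ligand-binding chain of the interferon gamma receptor, was at 191 and 178 CPM in vehicle against 119 and 139 with BML-260 (log2 fold change -0.52, SE 0.14; edgeR adjusted p = 0.36, DESeq2 adjusted p = 0.0417). Ifngr2, the other chain, was at 27.6 and 25.6 CPM in vehicle against 46 and 39.3 with BML-260 (0.68, SE 0.14; adjusted p = 0.292 and 0.0269). Thus the receptor chains lay on opposite sides.

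Tap1, which encodes part of the peptide transporter, lies head to head with Psmb9 (chr17:34187553-34197225, plus strand). The annotated ends of the pair overlap, and without a stated strand setting reads in the overlap cannot be assigned. Tap1 was at 98.6 and 111 CPM in vehicle against 115 and 93.7 with BML-260, giving a log2 fold change of -0.01 (SE 0.15). Irf1, a transcription factor of interferon gamma targets, was at 62.2 and 68.5 CPM against 56 and 57.7, and its groups did not overlap (-0.20, SE 0.12, edgeR adjusted p = 0.569). B2m, the light chain of class I molecules, was at 2210 and 2330 CPM against 1900 and 1980 (-0.23, SE 0.22, adjusted p = 0.73). Nlrc5 (0.06, SE 0.11) and Tapbpl (0.10, SE 0.12) were higher without overlap. Of the 15 genes on the list, 3 were higher and 5 lower without overlap, against 22.9% and 21.5% of all tested genes.

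The activators that are induced with the immunoproteasome had smaller differences in the same direction. Psme1 and Psme2 encode the alpha and beta chains of PA28, a ring that opens the core without ATP, and lie close together on chromosome 14. Psme1 was at 114 and 108 CPM in vehicle against 106 and 100 with BML-260 (log2 fold change -0.10, SE 0.12). Psme2 was at 124 and 110 CPM in vehicle and 108 in both BML-260 libraries (-0.11, SE 0.13). In CPM both genes were lower without overlap, as were 21.5% of all tested genes. Neither passed the test (edgeR adjusted p = 0.784 and 0.78). As FPKM the groups overlapped slightly in both genes. BML-260 A was at 137 against 136 in vehicle B for Psme1, and at 171 against 170 for Psme2. Psme2b, a near copy of Psme2, was at 1.38 and 1.73 CPM in vehicle against 3.56 and 1.28 with BML-260, so its log2 fold change of 0.63 (SE 0.56) rested on BML-260 A. Its few counts may be shared with Psme2.

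**Figure D4:**
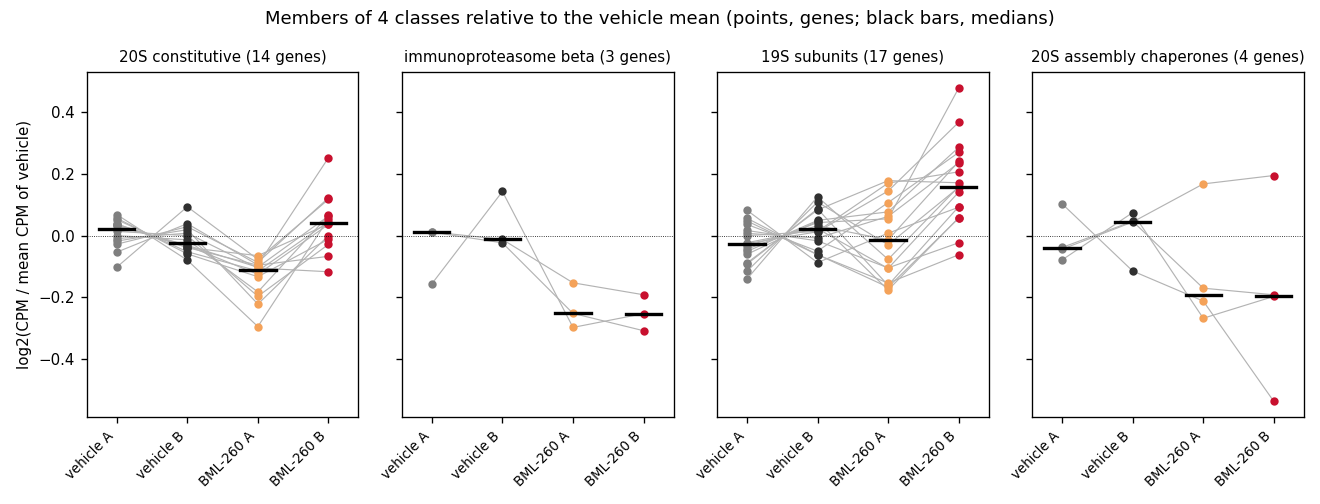
Level of each member relative to its mean in vehicle (log2 CPM ratio) in the 4 libraries for the standard 20S core, the immunoproteasome genes, the 19S particle and the core assembly chaperones; each grey line joins 1 gene's points and black bars are medians. The immunoproteasome medians are -0.25 in both BML-260 libraries, and the 19S medians there are -0.01 (A) and 0.16 (B).

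In the 19S particle, 3 of the 6 ATPase genes were above zero and 9 of the 11 other subunit genes. The ATPase genes ranged from -0.10 (SE 0.12) for Psmc1, at 123 and 114 CPM in vehicle against 107 and 114 with BML-260, to 0.18 (SE 0.11) for Psmc3, at 104 and 105 CPM in vehicle against 117 and 120 with BML-260. For Psmc3 the groups did not overlap (edgeR adjusted p = 0.593). Among the other subunits, Psmd6, part of the lid, was highest. It was at 55.4 and 58.8 CPM in vehicle and at 59.3 and 79.5 in BML-260 A and B (0.28, SE 0.17, adjusted p = 0.585).

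Psmd8, another lid subunit, was at 112 and 115 CPM in vehicle against 126 and 147 with BML-260 (log2 fold change 0.26, SE 0.14, edgeR adjusted p = 0.538). Psmd1, a scaffold of the base, was at 120 and 113 CPM in vehicle against 126 and 141 with BML-260 (0.20, SE 0.13, adjusted p = 0.611). In these genes both BML-260 libraries lay above both vehicle libraries, and BML-260 B stood highest. Over the 17 genes of the 19S particle, 7 were higher (41.2%) and 2 lower (11.8%) without overlap. For all tested genes these shares were 22.9% and 21.5%. Psmd14, the deubiquitinase of the lid, was lowest of the 11 at -0.05 (SE 0.13), at 60 and 55.3 CPM in vehicle against 51.4 and 60 with BML-260.

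The higher 19S values rested mostly on BML-260 B. All 11 non-ATPase genes and 5 of the 6 ATPase genes were higher in BML-260 B than in BML-260 A. Over the 17 genes the median log2 fold change was 0.065. Leaving out BML-260 A gave 0.14, and leaving out BML-260 B gave -0.02 with 9 of 17 below zero. With library totals as the scaling it was 0.01, with 8 of 17 below zero. BML-260 B had the highest skeletal muscle marker sum, 51100 CPM, and the part of muscle RNA in these values was not tested.

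The balance between the particle and the core was read within each library as the ratio of summed FPKM. It was 0.617 and 0.649 in vehicle A and B and 0.699 and 0.696 in BML-260 A and B, or 0.633 ± 0.0225 against 0.697 ± 0.00172 (SD, n = 2 each). The gap between the groups exceeded the difference between libraries of a group. The same ratio of estimated counts was 1.19 and 1.24 in vehicle and 1.33 in both BML-260 libraries. No test was made of this ratio, since it is a sum over members chosen as a set.

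Psme4 (chr11:30771726-30880361, plus strand, GRCm38) encodes PA200, a large single-chain activator that binds the core and serves ATP-independent degradation. It was at 85.3 and 98.7 CPM in vehicle A and B and at 132 and 167 in BML-260 A and B, from 1798 to 3666 estimated counts per library. Both BML-260 libraries lay above both vehicle libraries, and BML-260 B was highest. The log2 fold change was 0.70 (SE 0.17) with an unadjusted p of 0.00802 and an adjusted p of 0.329 in edgeR. DESeq2 gave 0.69 (adjusted p = 0.0235), and the authors' deposited table gives 0.63 with an adjusted p of 0.0302. It was thus called by DESeq2 but not by limma-voom (adjusted p = 0.293) or the main edgeR test, which called it only when low-count genes were kept (adjusted p = 0.0435).

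As FPKM the level of Psme4 was 15.8 ± 1.16 in vehicle and 25.5 ± 3.92 in BML-260 (SD, n = 2 each), below each of the 31 standard subunits per length. With each library left out the edgeR log2 fold change ranged from 0.52 without BML-260 B to 0.85 without BML-260 A. DESeq2 still called it when BML-260 A was left out (adjusted p = 0.00384). The call was lost when any of the other libraries was left out, with adjusted p of 1 (vehicle A), 0.176 (vehicle B) and 0.171 (BML-260 B).

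Skeletal muscle markers ranked the libraries in the same order as Psme4. From vehicle A to vehicle B the muscle sum was 27.2 times higher and Psme4 1.16 times higher. From vehicle B to BML-260 A the steps were 2.8 and 1.34 times, and from BML-260 A to BML-260 B 1.54 and 1.27 times. The sum of 6 brown and beige adipocyte markers, among them Ucp1, also followed this order, at 115, 137, 505 and 551 CPM. The part of either in the higher Psme4 level was not tested.

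**Figure D5:**
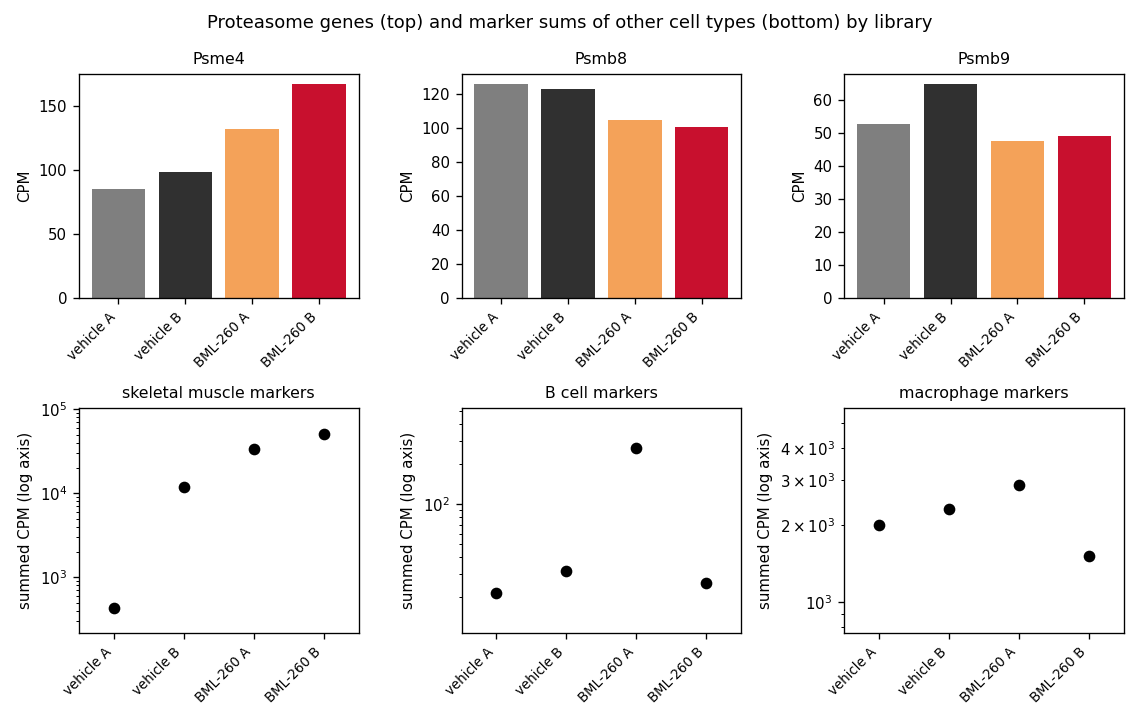
CPM of Psme4, Psmb8 and Psmb9 in each library (top, bars from 0) above the summed CPM of skeletal muscle, B cell and macrophage markers (bottom, log axis). Psme4 ranks the libraries in the same order as the muscle markers. Psmb8 and Psmb9 are lower in both BML-260 libraries than in both vehicle libraries, as are 21.5% of all tested genes. B cell markers are highest in BML-260 A, at 262 CPM.

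The remaining regulators were near their vehicle level or slightly lower. Psme3, which encodes the nuclear activator PA28 gamma, had a log2 fold change of 0.08 (SE 0.11). Psmf1, which encodes the inhibitor PI31, was at 27.5 and 29.1 CPM in vehicle against 23.2 and 26.5 with BML-260 (-0.19, SE 0.13, edgeR adjusted p = 0.637), with no overlap between groups.

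The chaperones that build the proteasome were few and of low level. The 19S chaperone genes ranged from -0.06 (SE 0.13) for Psmd5, at 36.8 and 35.9 CPM in vehicle against 32.3 and 37.4 with BML-260, to 0.12 (SE 0.17) for Psmd10, at 11.6 and 12.8 against 14 and 12.4. Groups overlapped in all 3. Of the 4 core chaperone genes, 3 were below zero, with no overlap in any of the 4. Over all tested genes 21.5% were lower and 22.9% higher without overlap. Psmg4 was lowest at 10 and 8.6 CPM in vehicle against 8.04 and 6.42 with BML-260 (-0.36, SE 0.23, edgeR adjusted p = 0.593). Psmg2 was the exception at 9.07 and 9.64 CPM against 10.5 and 10.7 (0.18, SE 0.18). Pomp, the maturation factor of the core, was at 69 and 77.1 CPM in vehicle against 67.6 and 67.3 with BML-260 (-0.12, SE 0.12).

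Genes that act on or with the proteasome came from lists of its partners, of ubiquitin genes and shuttles, of regulators of proteasome genes and of antigen processing. These held 63 names, with alternative symbols for some genes, and 59 were found and tested. Their log2 fold changes were above zero for 32 and below for 27, with a median of 0.01. EdgeR called 0 of the 59. Without adjustment 4 higher and 1 lower gene had an edgeR p under 0.05, against 7.45% and 3.61% of all tested genes. With DESeq2 there were 1 higher and 1 lower call, the interferon gamma receptor genes above, against 2.09% and 0.499% of all tested genes.

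Among the partners, AI314180 encodes ECM29, an adaptor that binds the 26S proteasome. It was at 103 and 110 CPM in vehicle against 130 and 144 with BML-260 (log2 fold change 0.36, SE 0.13, edgeR unadjusted p = 0.0341, adjusted 0.425). The 19S subunit genes outside the Psm names lay closer to zero. Adrm1, a ubiquitin receptor, was at 90.3 and 99.6 CPM against 96 and 113 (0.14, SE 0.14). Sem1, the smallest lid subunit, was at 50.6 and 46.8 CPM against 44.8 and 48.8 (-0.06, SE 0.12). Tpp2, a giant peptidase that trims proteasome products, was at 39.6 and 38.6 CPM against 48.8 and 48.1 (0.31, SE 0.11, adjusted p = 0.428). As FPKM the groups of Tpp2 overlapped, at 14 in both vehicle libraries against 13 and 15.2 with BML-260.

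Nfe2l1, which encodes the transcription factor that restores proteasome gene expression when degradation is short, was at 431 and 430 CPM in vehicle against 437 and 531 with BML-260. Its log2 fold change was 0.17 (SE 0.18, edgeR adjusted p = 0.76), and in CPM only BML-260 B stood clearly apart. As FPKM Nfe2l1 was at 165 and 151 in vehicle against 186 and 207 with BML-260, so this reading depended on the measure. Ddi2, the protease that cleaves and so activates NFE2L1, was at 62.8 and 62.5 CPM in vehicle against 73.7 and 79.8 with BML-260 (0.29, SE 0.11, unadjusted p = 0.0435, adjusted 0.44).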

How the data were processed

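Total RNA was extracted with TRIzol and made into Illumina libraries, per the labels' protocols. RSEM 1.2.31, HISAT2 2.1.0, DESeq2 1.10.1 and GRCm38.p5 are named, without role, in the submitters' processing notes. The authors deposited 1 table of expected counts and FPKM per gene and library, with group means, their log2 values, and their own log2 fold change, p-value and adjusted p-value, per the file headers. Annotation and strand setting are not given in the sources used here. Overlapping or near-identical genes therefore have uncertain counts; 13 of the 50 members had a count that was not whole in some library.

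Expected counts were rounded. After filterByExpr, 15643 genes were tested with edgeR 4.0.16 (R 4.3.3) quasi-likelihood, TMM factors and group as the only term (2 residual degrees of freedom), two-sided, with Benjamini-Hochberg adjustment over all of them and a threshold of 0.05. Standard errors are the log2 fold change over the square root of F. DESeq2 1.42.0, limma-voom 3.58.1, other scalings, no filter, each library left out and the library letter as a block were alternatives; DESeq2 with each library left out was chosen after seeing the data. The edgeR, DESeq2 and limma steps were also run on simulated counts. Simulated libraries of a group differed only by depth and random noise, without the marker differences between libraries described above. The 95% intervals rest on 2 libraries per group.

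The members and lists were chosen with earlier results of these data known. Members given in every library were the catalytic pairs, PA28 genes, the extremes of each class, up to 5 per direction with the smallest p, any called by a tool and those not tested; related genes were Nfe2l1, Pomp, Sem1, Adrm1 and the 5 with the smallest p. Tap1, Irf1, B2m, Nlrc5, Tapbpl, Psme3, Psme2b, the single marker genes and the genes at the ends of the FPKM ranges were named after their values were seen. Positions are from GENCODE vM21 (GRCm38), which held 51633 of the identifiers.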

Additional observations from a re-analysis of the deposited data

How the results depend on the processing

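Without a filter on low counts edgeR called 651 genes and 1 member, and DESeq2 called 405 genes, 1 member and 2 related genes, against 1, 0 and 0 in the main test. Leaving out 1 library gave 0 to 309 genes in edgeR and 0 members, or 0 to 1 members in DESeq2 (1 without BML-260 A). A group left with 1 library is then assumed to vary like the other. The members' median log2 fold change ranged from -0.102 to 0.037 over these fits, so its sign rested on single libraries. With the replicate block (library letter) 0 genes and 0 members were called and the members' median was -0.025. The differences between libraries A and B in the 2 groups had a correlation of -0.035 over 13132 genes. With 1 such difference per group, this value cannot show whether libraries of the same letter were prepared together.

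Psme4 passed in edgeR without the filter (log2 fold change 0.695, adjusted p = 0.0435), in DESeq2 (0.692, adjusted p = 0.0235) and in DESeq2 without BML-260 A (0.859). Of 23 named members tested, 17 kept their sign in all 10 alternatives. Signs turned in 6 members with values near zero, whose log2 fold changes with a library left out ranged from -0.066 to 0.027 for Psma4, -0.097 to 0.125 for Psmb5 (-0.032 with library totals), -0.129 to 0.022 for Psmb6, -0.094 to 0.247 for Psmb7, -0.17 to 0.045 for Psmd14 and -0.173 to 0.026 for Psmd5.

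Log2 ratios of class sums moved by more than the pooled SD between libraries of a group of that class's own log2 summed FPKM, when shares of counts replaced FPKM for the 19S ATPases (0.003 to -0.026), the 19S chaperones (0.022 to -0.067) and the activators with the inhibitor (-0.069 to 0.085). Over leaving out a library the log2 differences of the catalytic ratios ranged from -0.443 to -0.107 for Psmb8 to Psmb5, from -0.442 to -0.21 for Psmb9 to Psmb6 and from -0.45 to -0.122 for Psmb10 to Psmb7. The cause of these shifts was not tested.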
